A study of Mus musculus with 27 samples.

Results

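The cell cycle and DNA replication genes described here are a list of 43 genes that act between the commitment of a cell to divide and the separation of its daughter cells. On the arrays, 37 of the 43 had a probe set that names a single gene, out of 18820 such genes in all, and each gene was represented by its probe set with the highest mean signal over the 27 arrays. Ccne2, Tyms, Foxm1, Kif20a and Nusap1 were met only on probe sets shared with another gene, and Ccnb1 was on no probe set listed with a gene, so these 6 were not analysed here. All 37 measured genes passed the intensity filter, and 36 also passed the filter on variability and were tested. Mcm7, a subunit of the replicative helicase, was the exception, with an interquartile range of 0.0868 on the log2 scale against the minimum of 0.1.

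Liver RNA was measured in 27 C57Bl/6J pups aged 2 weeks, with 1 Affymetrix array per pup. Their dams ate a semi-synthetic low fat diet (LFD, 10% of energy from fat, 18.0 mg cholesterol per kg) or a Western-style diet (WSD, 45% of energy from fat, 196.5 mg cholesterol per kg) for 6 weeks before mating and then through gestation and lactation. All dams were mated with males on the control diet, and the labels describe no genetic change in the pups. The groups were 6 sons of LFD dams (m-LF), 6 sons of WSD dams (m-WS), 9 daughters of LFD dams (f-LF) and 6 daughters of WSD dams (f-WS). The labels do not give the dam of each pup, so that the p-values measure the spread between pups, some of which may be littermates. Each array name includes a number whose meaning is not stated, and each of the numbers 37, 39, 40, 48, 49 and 50 lies within 1 maternal diet, so that an effect of number and one of diet cannot be told apart. The names also begin with G073 or G074, and each prefix holds pups of all 4 groups.

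A dividing cell passes through G1, copies its DNA in S phase, and after G2 separates the copies in mitosis. D-type cyclins and cyclin E lead the cell out of G1, in part by releasing E2F factors that turn on replication genes, while cyclin A, cyclin B and the kinase Cdk1 carry it into mitosis, when genes of that phase are at their highest. In the weeks after birth hepatocytes still divide while the liver grows, and the neonatal liver also holds remnants of foetal blood formation, which divide as well. In RNA of a whole liver, fewer cells of a type and less RNA per cell cannot be told apart.

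The array signal was that of liver: the 10 hepatocyte markers measured, among them Alb, all passed the intensity filter, and their summed intensity lay between 63700 and 71100 in every pup. Pups of the same group had a median SD of 0.12 to 0.13 per gene on the log2 scale. For the cell cycle genes the median SD was 0.124 in m-LF and 0.153 in m-WS, and it was wider in daughters, at 0.208 in f-LF and 0.223 in f-WS. Several pups were low for most of these genes, as the plot of each pup shows. f-LF1 was below the mean of the 27 pups for 37 of 37 genes, f-LF2 and f-LF4 for 34 each and f-WS2 for 27. Of the sons, m-WS1 was below it for 37 of 37 and m-WS5 for 32.

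Stretches of promoter sequence are shown for genes that differed between groups and for 3 genes of mitotic entry, to let the control regions of early and late cell cycle genes be set side by side. Each line gives the 150 bases directly before the annotated gene start, 5′ to 3′ along the gene's strand, from RefSeq on GRCm38.p6, with matches to the searched words in capitals. The words searched for were TTGGCGC together with its variants TTCGCGC and, in addition, TTCCCGC as well as TTGCCGC (E2F-type), then TTTGAA or its variant TTCGAA (CHR-type, for cell cycle genes homology region), and finally the word CCAAT. Each was searched on either strand, and the last of them on the opposite strand reads ATTGG. The stretches lie at chr7:38107491-38107640 (minus strand, Ccne1), chr8:122567865-122568014 (plus strand, Cdt1), chr1:128359706-128359855 (minus strand, Mcm6), chr2:132253181-132253330 (minus strand, Pcna), chr10:69352913-69353062 (minus strand, Cdk1), chr9:70421555-70421704 (minus strand, Ccnb2) and chr7:122159285-122159434 (plus strand, Plk1).
Ccne1: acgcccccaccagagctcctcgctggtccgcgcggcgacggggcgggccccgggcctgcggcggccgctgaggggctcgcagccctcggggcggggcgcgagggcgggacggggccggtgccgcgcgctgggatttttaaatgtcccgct
Cdt1: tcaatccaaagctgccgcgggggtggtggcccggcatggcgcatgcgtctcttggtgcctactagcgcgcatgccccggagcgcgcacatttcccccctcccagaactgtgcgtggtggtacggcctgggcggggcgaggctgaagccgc
Mcm6: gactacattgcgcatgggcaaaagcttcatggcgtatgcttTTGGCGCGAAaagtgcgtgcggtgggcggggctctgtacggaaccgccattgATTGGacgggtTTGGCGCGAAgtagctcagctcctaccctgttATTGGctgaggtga
Pcna: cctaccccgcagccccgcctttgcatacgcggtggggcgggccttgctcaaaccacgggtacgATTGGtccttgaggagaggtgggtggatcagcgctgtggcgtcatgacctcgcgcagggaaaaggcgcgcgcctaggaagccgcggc
Cdk1: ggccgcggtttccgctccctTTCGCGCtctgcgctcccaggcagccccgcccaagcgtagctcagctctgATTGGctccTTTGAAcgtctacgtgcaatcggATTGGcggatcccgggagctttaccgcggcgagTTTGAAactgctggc
Ccnb2: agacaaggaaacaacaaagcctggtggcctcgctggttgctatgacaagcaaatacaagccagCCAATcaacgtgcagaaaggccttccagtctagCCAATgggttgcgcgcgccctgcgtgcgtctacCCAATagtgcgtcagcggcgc
Plk1: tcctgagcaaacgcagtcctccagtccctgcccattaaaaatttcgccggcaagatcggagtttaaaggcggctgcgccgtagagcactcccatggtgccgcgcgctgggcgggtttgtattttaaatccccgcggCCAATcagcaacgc
Mcm6 holds a pair of E2F-type stretches, each of which matches on both strands so that 4 words are counted, beside 2 CCAAT words. Cdk1 holds 1 E2F-type word, 2 CHR-type words and 2 CCAAT words. Ccnb2 holds 3 CCAAT words, and Plk1 and Pcna 1 each. The stretches of Ccne1 and Cdt1 hold none of these words. The windows of Cdc6 and Bub1b overlap the annotated genes themselves and are not shown.

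Over the 250 bases before the start, E2F-type words were in 31.4% of the 35 promoters listed for 33 of the 43 genes, against 7.89% of the 32851 promoters in the table. CHR-type words were in 31.4% against 17.1%, and CCAAT in 77.1% against 33.8%. Both CHR-type words and CCAAT were in 31.4% of these promoters and in 6.02% of all. E2F-type words were found in 5 of 9 promoters of origin licensing genes and in 0 of 7 promoters of spindle checkpoint and kinetochore genes, and in 2 of 5 promoters of G2 and mitotic entry genes. CHR-type words were in 3 of 9, 2 of 7 and 2 of 5 promoters of these phases, in the same order. CCAAT was common in all 3 of these phases, in 7 of 9, 6 of 7 and 5 of 5 promoters. These shares describe letters in a window and were given no test.

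The first question was whether maternal WSD changed these genes in sons. Ccne1, which encodes cyclin E1 and drives entry into S phase, fell to 0.734-fold in m-WS. Ccnd2, which encodes the G1 cyclin D2, fell to 0.884-fold and Cdc6, which loads the replicative helicase at origins, to 0.825-fold. Thus 3 of the 36 genes tested fell and 0 rose at p at most 0.01, the threshold the study used, against 2.6% of all 10810 genes that fell, 3.02% that rose and 5.62% in either direction. At p at most 0.05, 5 were lower and 1 higher, against 6.2% and 8.1% of all genes. None of the 36 passed an adjusted p under 0.05, which 0.731% of all genes did. Without m-WS2, 1 gene fell in place of 3, and the share of all genes called in that refit was not taken. In m-WS, 31 of the 36 were below m-LF, with a median change of -0.09 on the log2 scale, while 47.2% of all genes were below it and the median of all genes was 0.0073.

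**Figure D1:**
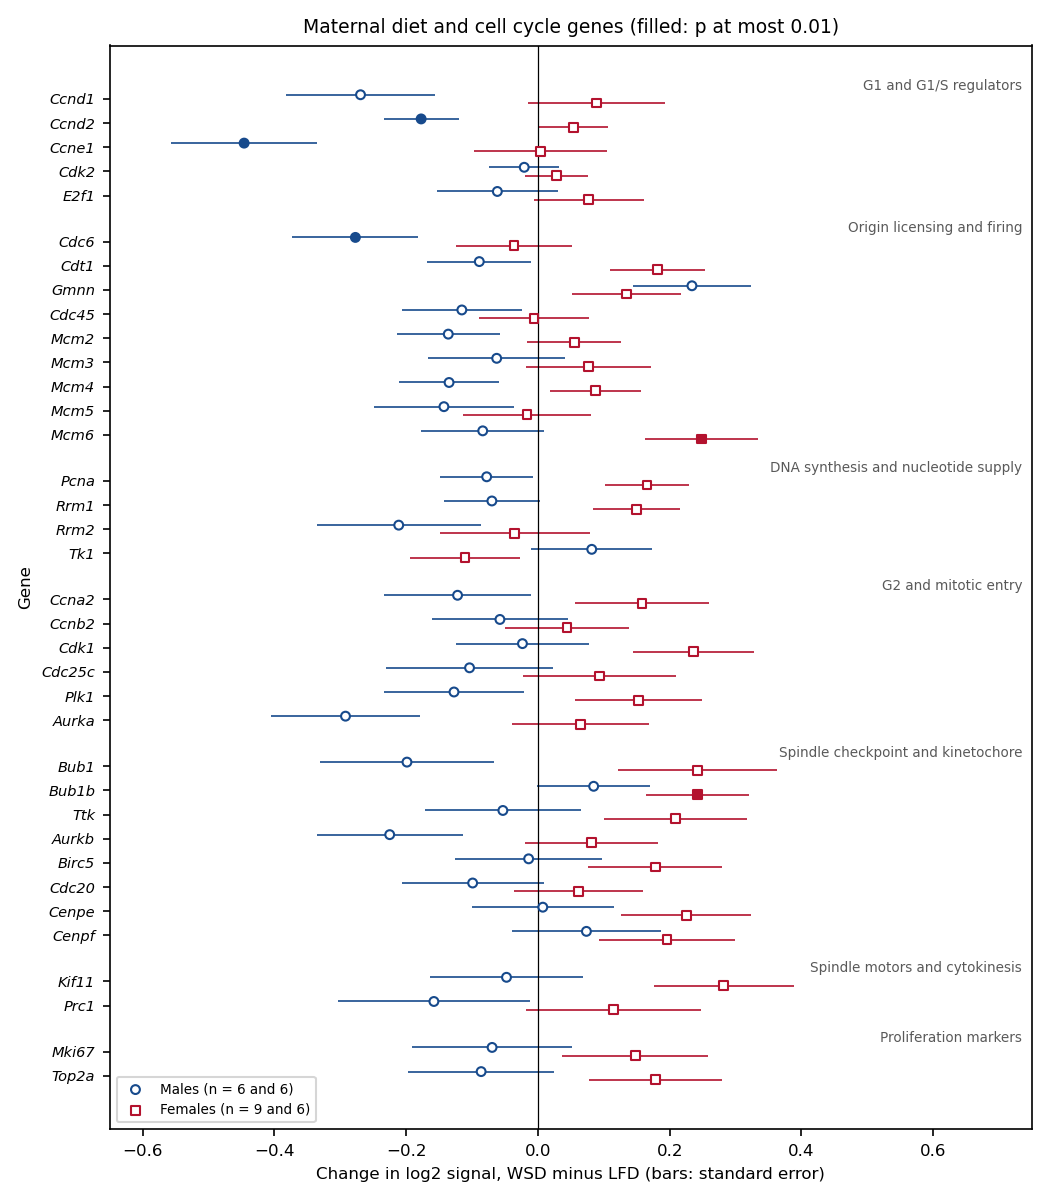
Change in log2 signal with maternal WSD (WSD minus LFD, horizontal axis) for the 36 tested cell cycle genes (vertical axis, in blocks by phase), in males (circles) and females (squares). Bars are standard errors, and filled symbols mark p at most 0.01. Most circles lie below 0 and most squares above it, with Ccne1 in males the furthest from 0, at -0.45.

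The same question was put to daughters. Bub1b, which encodes the spindle checkpoint kinase BubR1, rose to 1.18-fold in f-WS, and Mcm6, a subunit of the replicative helicase, to 1.19-fold. Thus 2 of the 36 rose and 0 fell at p at most 0.01, against 3.6% of all genes that rose, 1.59% that fell and 5.19% in either direction. At p at most 0.05, 8 were higher and 0 lower, against 9.71% and 4.75% of all genes. None passed an adjusted p under 0.05, which 0.305% of all genes did. The count rests on single pups: it was 0 without any 1 of f-LF1, f-LF4, f-WS1, f-WS3 or f-WS4, and 7 without f-WS2. The share of all genes called in those refits was not taken. Of the 36 genes, 31 were above f-LF, with a median change of 0.10, against a median of 0.0144 over all genes, of which 43.9% were below f-LF.

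No gene separated the diets fully: in neither sex did the LFD and WSD pups fail to overlap for any of the 37 genes, while 1.39% of all genes in males and 0.435% in females had no overlap. The change in sons minus that in daughters was below 0 for 34 of 36 genes, with a median of -0.22 against -0.0082 over all genes. Tested as an interaction, this difference reached p at most 0.01 for 2 genes, Ccnd2 and Ccne1, against 2.5% of all genes in either direction and 1.32% in this direction. The count of 2 ran from 0 without m-LF3 to 5 without f-WS2 or f-WS5, and 13 of the 27 pups moved it when left out. The share of all genes called was not taken in those refits. At p at most 0.05 in the same limma test, the interaction was below 0 for 11 of the 36 and above 0 for 0. Of all 10810 genes, 586 (5.42%) were below 0 and 474 above 0 at that threshold. No gene on the arrays passed an adjusted p under 0.05 for this interaction. The listed genes co-vary over pups, so that counts of them, by sign or by p, are not counts of independent genes.

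**Figure D2:**
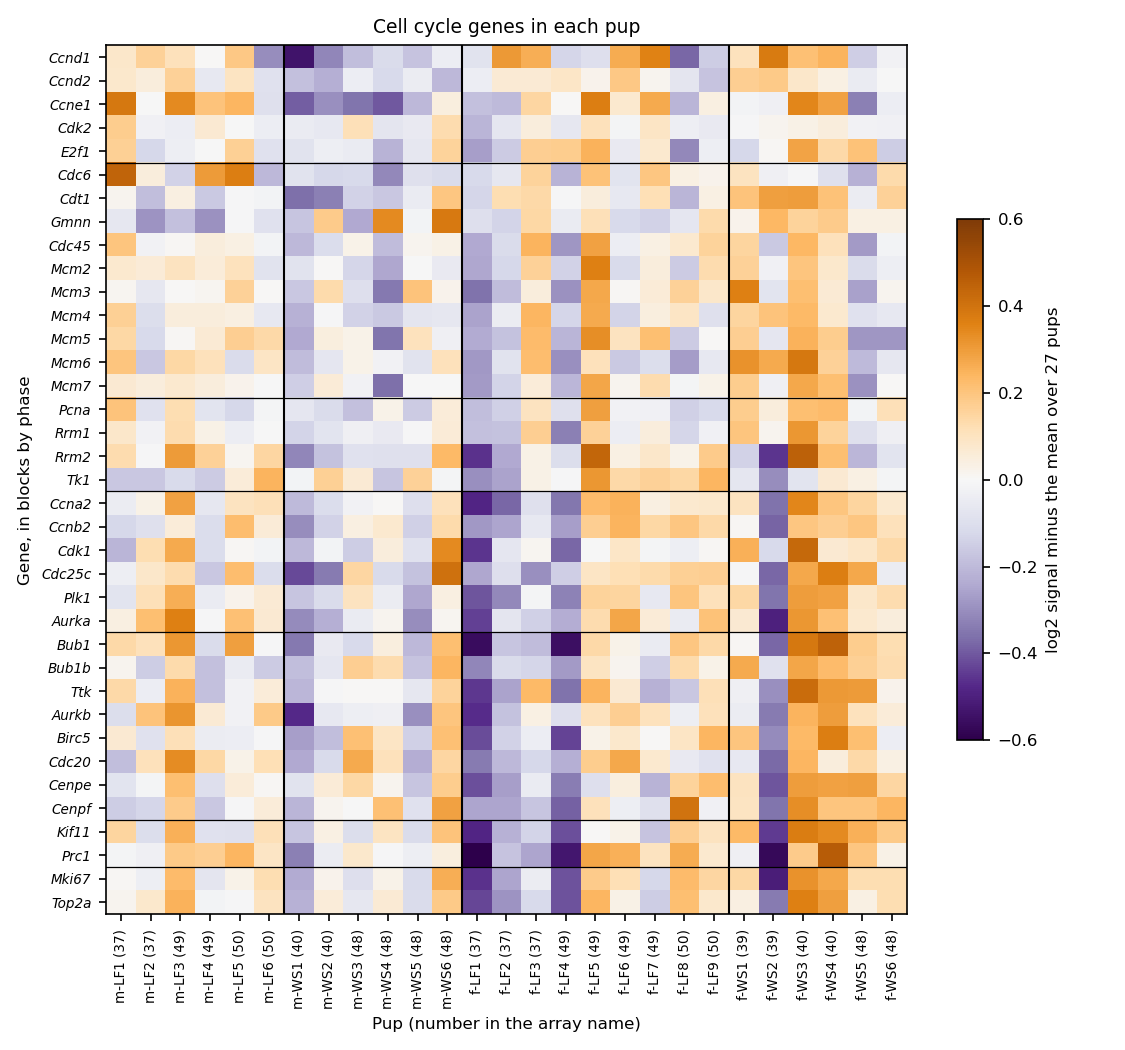
Signal of each of the 37 measured genes (rows, in blocks by phase) in each pup (columns, with the number of the array name in brackets), as log2 signal minus the mean over the 27 pups; black vertical lines part the groups. The lower blocks, of mitotic genes, show f-LF1, f-LF4 and f-WS2 as dark low columns, and f-WS3 and f-WS4 as high ones.

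Of the G1 and G1/S regulators, 5 of 6 were measured. They comprise the cyclins D1, D2 and E1, the kinase Cdk2 that cyclin E activates, and the factor E2f1. The 5 were below 0 in sons, with a median change of -0.18, and above 0 in daughters, with a median of 0.05. The log2 signal of Ccne1 was lowest at 7.29, with a median of 7.60 and a highest value of 7.76 in m-LF, and lowest at 6.97, with a median of 7.05 and a highest of 7.42 in m-WS. Only m-WS6, at 7.42, reached into the range of m-LF. The change was -0.45 (SE 0.11; limma adjusted p = 0.0511). In daughters Ccne1 ran from 7.16 to 7.74 in f-LF (median 7.42) and from 7.05 to 7.73 in f-WS (median 7.35), so that the groups covered much the same range. Its change there was 0.0039 (SE 0.10, limma adjusted p = 0.992), and the interaction was -0.45 (SE 0.15; limma adjusted p = 0.377). Within the array prefixes, the change of Ccne1 in males was -0.62 on G073 arrays and -0.16 on G074 arrays, the latter with 2 m-LF and 3 m-WS pups and a limma p of 0.348.

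Ccnd2 was at 8.38, 8.53 and 8.63 in m-LF (lowest, median and highest) and at 8.24, 8.31 and 8.43 in m-WS. The ranges overlapped narrowly, with m-LF4 and m-LF6 below the highest m-WS pups, m-WS3 and m-WS5. The change was -0.18 (SE 0.06; limma adjusted p = 0.122), with -0.19 on G073 and -0.14 on G074 arrays. In daughters it was 0.05 (SE 0.05, limma adjusted p = 0.697), and the interaction was -0.23 (SE 0.08; limma adjusted p = 0.377). Ccnd1, whose product cyclin D1 answers to growth signals in hepatocytes, was at 9.08, 9.48 and 9.57 in m-LF and at 8.84, 9.20 and 9.34 in m-WS. The change of -0.27 (SE 0.11; limma adjusted p = 0.253) did not pass p 0.01. In males E2f1 differed by -0.06 (SE 0.09) and Cdk2 by -0.02 (SE 0.05), both within their error.

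All 10 origin licensing and firing genes were measured, and 9 were tested. Cdc6 and Cdt1 load the Mcm2 to Mcm7 helicase, geminin (Gmnn) blocks Cdt1 so that origins fire once per cycle, and Cdc45 joins the helicase when it starts. Of the 9, 8 were below 0 in sons (median -0.12) and 6 above 0 in daughters (median 0.08). Cdc6 was at 5.58, 5.96 and 6.23 in m-LF and at 5.47, 5.67 and 5.71 in m-WS. The m-WS pups were tightly grouped apart from m-WS4, which was the lowest, while 2 of the 6 m-LF pups lay within their range. The change was -0.28 (SE 0.10; limma adjusted p = 0.158), and it was -0.41 on G073 and -0.04 on G074 arrays. It no longer passed p 0.01 with the array number as a random block (limma adjusted p = 0.308), with the replicate number as a fixed block (limma adjusted p = 0.185) or with the sons fitted alone (limma adjusted p = 0.229). In daughters Cdc6 differed by -0.04 (SE 0.09).

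Mcm6 was at 8.13, 8.33 and 8.65 in f-LF and at 8.23, 8.65 and 8.81 in f-WS. Both f-WS pups of number 39 and f-WS3 of number 40 were above every f-LF pup, while f-WS4, also of number 40 and at 8.59, and f-WS5 and f-WS6, of number 48, lay within the range of f-LF. The change was 0.25 (SE 0.09; limma adjusted p = 0.172), and it was 0.15 on G073 and 0.44 on G074 arrays. It too no longer passed p 0.01 with the array number as a random block (limma adjusted p = 0.282) or the replicate number as a fixed block (limma adjusted p = 0.268). In sons Mcm6 differed by -0.08 (SE 0.09). The other tested helicase genes, Mcm2, Mcm3, Mcm4 and Mcm5, lay between -0.14 and -0.06 in sons and between -0.02 and 0.09 in daughters, and none passed p 0.05. Mcm7 was at 8.64 ± 0.03 (SD, n = 6) in m-LF, 8.51 ± 0.16 (n = 6) in m-WS, 8.58 ± 0.17 (n = 9) in f-LF and 8.65 ± 0.21 (n = 6) in f-WS.

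Gmnn had the opposite sign from the rest of the tested licensing genes in sons. It was at 4.12, 4.27 and 4.41 in m-LF and at 4.17, 4.49 and 4.79 in m-WS, a change of 0.23 (SE 0.09; limma adjusted p = 0.202) that did not pass p 0.01. This is a dim probe set, with a mean of 4.41 over all pups, and the other single-gene probe set of Gmnn gave 0.07 in males and -0.12 in females. In daughters Cdt1 was at 6.76, 7.01 and 7.11 in f-LF and at 6.93, 7.18 and 7.27 in f-WS, a change of 0.18 (SE 0.07; limma adjusted p = 0.232).

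DNA synthesis and nucleotide supply were represented by 4 of 5 genes, and 0 passed p 0.01 in either sex. Pcna is the sliding clamp of the DNA polymerases, Rrm1 and Rrm2 form ribonucleotide reductase, and Tk1 salvages thymidine. Pcna was at 9.75, 9.85 and 10.23 in f-LF and at 9.93, 10.09 and 10.17 in f-WS, with a change of 0.17 in daughters (SE 0.06, limma adjusted p = 0.222) and of -0.08 in sons (SE 0.07). Its other probe set gave 0.17 and -0.08 as well. Rrm1 was at 0.15 in daughters (SE 0.07, limma adjusted p = 0.284) and -0.07 in sons (SE 0.07). Rrm2 had the lowest value of the group in sons, at -0.21 (SE 0.12, limma adjusted p = 0.465), and -0.04 in daughters (SE 0.11). Tk1 had the opposite sign from most members in both sexes, with 0.08 in sons and -0.11 in daughters, neither past p 0.05. Its other probe set gave -0.03 in sons and -0.11 in daughters.

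**Figure D3:**
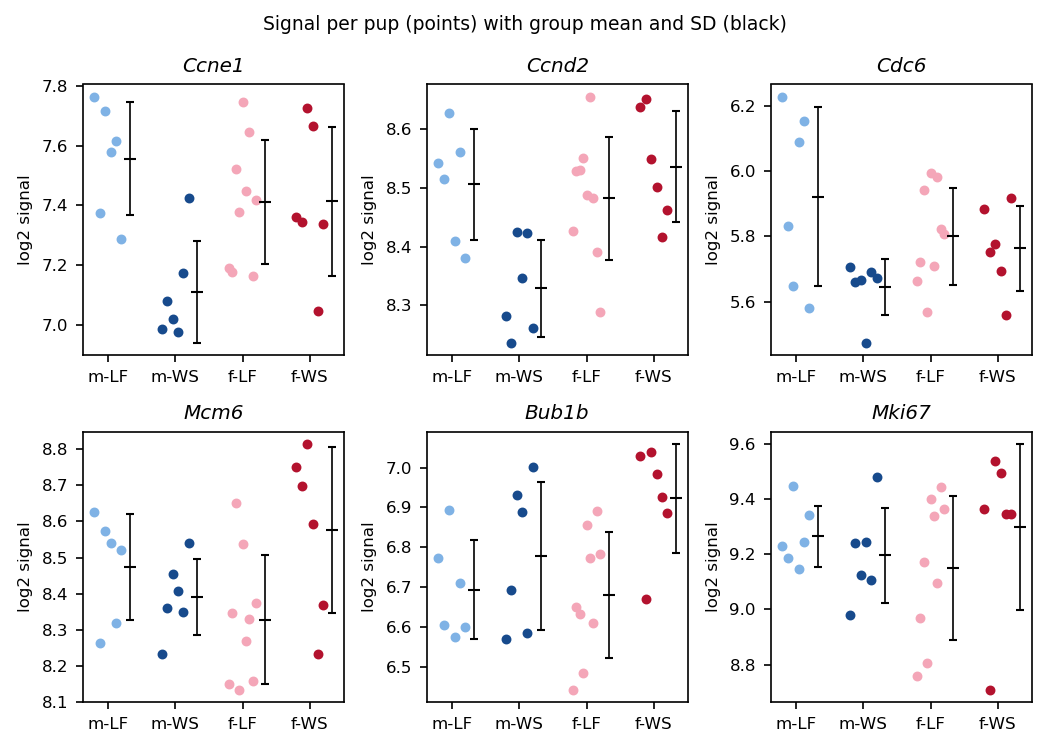
Log2 signal (vertical axes) of 6 genes in each pup (points) of the groups m-LF, m-WS, f-LF and f-WS (horizontal axes), with the group mean and SD in black; n = 6, 6, 9 and 6. For Ccne1, 5 of the 6 m-WS pups lie below every m-LF pup, whereas for Mki67 the groups overlap and 1 f-WS pup lies far below the others, at 8.71.

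The G2 and mitotic entry genes (6 of 8 measured) were below 0 in 6 of 6 in sons, with a median of -0.11, and above 0 in 6 of 6 in daughters, with a median of 0.12. None passed p 0.01. Aurka, a kinase of the spindle poles, was at 6.92, 7.06 and 7.28 in m-LF and at 6.61, 6.78 and 6.94 in m-WS, with a change of -0.29 (SE 0.11; limma adjusted p = 0.206). In daughters its change was 0.07 (SE 0.10). Cdk1, the kinase that starts mitosis, was at 8.24, 8.69 and 8.79 in f-LF and at 8.58, 8.81 and 9.13 in f-WS. Its change was 0.24 in daughters (SE 0.09; limma adjusted p = 0.222) and -0.02 in sons (SE 0.10). Plk1, a further mitotic kinase, differed by -0.13 in sons (SE 0.11) and 0.15 in daughters (SE 0.10). On G073 and G074 arrays, the change in daughters was 0.22 and 0.02 for Plk1, 0.22 and 0.26 for Cdk1, and 0.08 and -0.002 for Aurka. Ccna2, Ccnb2 and Cdc25c lay between -0.12 and -0.06 in sons and between 0.04 and 0.16 in daughters.

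The spindle checkpoint holds back chromosome separation until every chromosome is attached. All 8 spindle checkpoint and kinetochore genes were measured. They were above 0 in 8 of 8 in daughters, with a median of 0.20, and below 0 in 5 of 8 in sons, with a median of -0.03. Bub1b was at 6.44, 6.65 and 6.89 in f-LF and at 6.67, 6.96 and 7.04 in f-WS. All f-WS pups but f-WS2 and f-WS6 lay above every f-LF pup. The change was 0.24 (SE 0.08; limma adjusted p = 0.161), with 0.26 on G073 and 0.20 on G074 arrays. In sons Bub1b differed by 0.08 (SE 0.09), with -0.06 on G073 and 0.27 on G074 arrays. Bub1, its partner kinase, differed by 0.24 in daughters (SE 0.12, limma adjusted p = 0.355) and by -0.20 in sons (SE 0.13, limma adjusted p = 0.539). Cenpe, a kinetochore motor, differed by 0.23 in daughters (SE 0.10, limma adjusted p = 0.283) and by 0.0074 in sons (SE 0.11). Aurkb, the kinase of the chromosomal passenger complex, had the lowest value in sons, at -0.23 (SE 0.11, limma adjusted p = 0.355). On G073 and G074 arrays, the change in daughters was 0.27 and 0.15 for Bub1, 0.31 and 0.06 for Cenpe, and 0.16 and -0.05 for Aurkb. The G074 arrays held 4 f-LF and 2 f-WS pups.

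Of the spindle motors and cytokinesis genes, Kif11 and Prc1 were measured. Kif11, a motor that pushes the spindle poles apart, was at 7.24, 7.59 and 7.89 in f-LF and at 7.28, 7.97 and 8.10 in f-WS, with 5 f-WS pups above every f-LF pup and f-WS2 near the bottom of f-LF. The change was 0.28 (SE 0.11; limma adjusted p = 0.209), and -0.05 in sons (SE 0.12). Another, dimmer probe set of Kif11 gave 0.35 in daughters (limma adjusted p = 0.114) and 0.25 in sons. Prc1, which bundles microtubules between the separating chromosomes, differed by -0.16 in sons (SE 0.15) and 0.11 in daughters (SE 0.13). Its dim second probe set, with a mean of 3.47, had the opposite signs, at 0.18 in sons (limma adjusted p = 0.217) and -0.04 in daughters. The proliferation marker Mki67 was at 9.15, 9.24 and 9.45 in m-LF, 8.98, 9.18 and 9.48 in m-WS, 8.76, 9.17 and 9.45 in f-LF and 8.71, 9.35 and 9.54 in f-WS. Its groups overlapped widely, with changes of -0.07 (SE 0.12) in sons and 0.15 (SE 0.11) in daughters. Top2a, the topoisomerase that untangles chromosomes, differed by -0.09 (SE 0.11) and 0.18 (SE 0.10). A dim second probe set of Top2a, with a mean of 3.12, had the opposite sign from the first in both sexes, at -0.12 in daughters and at 0.28 in sons, where it passed p 0.01 (limma adjusted p = 0.0806). Another, with a mean of 2.88, gave -0.0091 in sons and 0.13 in daughters. By the brightest probe sets, Kif11 changed in daughters by 0.37 on G073 and 0.10 on G074 arrays, and Prc1 by 0.21 and -0.09. Mki67 changed there by 0.22 and -0.007, and Top2a by 0.20 and 0.13.

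The sexes were next compared within each maternal diet. On LFD, 0 of the 36 genes differed at p at most 0.01, or at an unadjusted p of at most 0.05, by limma, where 1.37% of all genes did at the first threshold and 6.6% at the second. On this diet 32 of 36 were higher in sons, with a median of 0.08. Of all 10810 genes, 4853 were higher in sons, with a median of -0.0101. On WSD, 4 of the 36 were lower in sons and 0 higher, against 2.29% of all genes that were lower and 3.35% in either direction. These were Cdt1 at -0.33 (SE 0.08; limma adjusted p = 0.0916), Ccnd2 at -0.21 (SE 0.06, limma adjusted p = 0.165), Ccnd1 at -0.36 (SE 0.11, limma adjusted p = 0.225) and Pcna at -0.20 (SE 0.07, limma adjusted p = 0.275). For Cdt1, the m-WS pups lay between 6.61 and 7.17 and the f-WS pups between 6.93 and 7.27, with m-WS6 the only son above the lowest daughter. For Ccnd2 the sons lay between 8.24 and 8.43 and the daughters between 8.42 and 8.65, and these ranges met only at their edges. On WSD 35 of the 36 genes were lower in sons, with a median of -0.13. Of all 10810 genes, 6240 were lower in sons on this diet, with a median of -0.0175. The count of 4 was 2 without m-WS1 and 7 without f-WS5, with the share of all genes called not taken in these refits.

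The numbers of the array names allow this comparison to be made within a number. In number 40, with 2 sons and 2 daughters, 36 of the 37 genes were lower in sons, with a median of -0.38. In number 48, with 4 sons and 2 daughters, 27 of 37 were lower, with a median of -0.06. Without number 40, 0 of the listed genes differed between the sexes on WSD at p 0.01, and the changes of Cdt1 and Ccnd2 were -0.20 and -0.18. The share of all genes called without number 40 was not taken. On LFD the genes lower in sons were 3 of 37 in number 37, 12 in number 49 and 18 in number 50. Averaged over the 37 genes, the daughters of number 40 stood 0.231 above the mean of the 27 pups and its sons 0.147 below it (mean of -0.147), whereas the other numbers of WSD dams lay between -0.033 and 0.027.

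The 37 genes moved together from pup to pup. After the group mean was taken off each gene, the median Pearson correlation over pairs of these genes was 0.45 (Spearman 0.42) over the 27 pups, against 0.01 over all pairs of tested genes. These correlations are a description over 27 pups, some of which may share a dam. Among the blocks of 4 or more genes, the closest were G2 and mitotic entry (median 0.79) and spindle checkpoint and kinetochore (0.76), followed by DNA synthesis (0.59), origin licensing (0.55) and the G1 regulators (0.40). The blocks of 2 genes have 1 pair each, Kif11 with Prc1 at 0.81 and Mki67 with Top2a at 0.96. The highest pairs were Kif11 with Mki67 and Mki67 with Top2a, both at 0.96, and Ccna2 with Plk1 at 0.93. With the mean of each number and sex taken off, the median over all pairs was 0.51. The genes that fell in sons were not alike in this: the median correlation with the other members was 0.01 for Ccnd2, 0.10 for Cdc6 and 0.43 for Ccne1. Mcm6 and Bub1b, which rose in daughters, had 0.34 and 0.63.

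**Figure D4:**
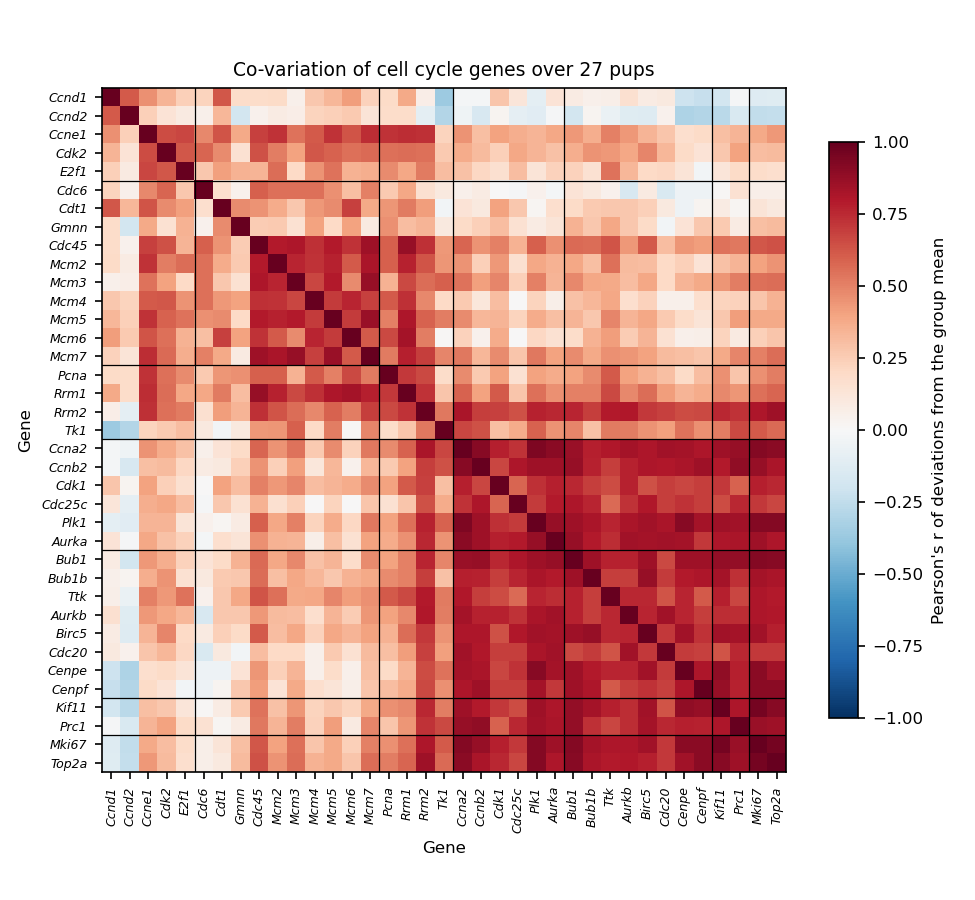
Pearson correlation (colour, from -1 to 1) between the 37 genes over 27 pups after the group mean was removed, with genes on both axes in blocks by phase. The G2 and mitosis genes form 1 dark block at the lower right, and a paler block holds the licensing and DNA synthesis genes. Ccnd1, Ccnd2 and Cdc6 are pale against the G2 and mitosis genes, while Cdc6 reaches 0.60 with Cdc45 and Ccnd1 0.62 with Cdt1.

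Mitotic genes varied most among daughters. The mean over Kif11 and Prc1 was -0.558 in f-LF1, -0.472 in f-LF4 and -0.508 in f-WS2, and 0.277 and 0.404 in f-WS3 and f-WS4, relative to the mean of the 27 pups. These 2 genes had wider values than the 8 spindle checkpoint and kinetochore genes, at -0.403, -0.333, -0.318, 0.304 and 0.273 in f-LF1, f-LF4, f-WS2, f-WS3 and f-WS4. The G1 regulators of the same pups were at -0.156, 0.015, 0.111, 0.192 and 0.152, so that f-LF4 and f-WS2 were low for mitotic but not for G1 genes.

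Other genes of the cell cycle were read from further lists of 138 measured genes, of which 130 were tested. In sons, 2 of the 130 rose and 1 fell at p at most 0.01, smaller shares than the 3.02% and 2.6% of all genes. Cdkn1c, which encodes the CDK inhibitor p57, fell by 0.42 on the log2 scale (SE 0.12; limma adjusted p = 0.088), from 7.91 ± 0.30 to 7.49 ± 0.12 (SD, n = 6 each). Rbl2, a relative of the retinoblastoma protein that holds cells out of cycle, rose by 0.23 (SE 0.07; limma adjusted p = 0.102). Mcm10, which helps start replication forks, rose by 0.28 (SE 0.09; limma adjusted p = 0.122). In daughters, 4 of the 130 rose and 0 fell, where 3.6% of all genes rose and 1.59% fell, so that the share that rose was no larger than that of all genes. The 4 were the CDK inhibitor Cdkn2c by 0.27 (SE 0.08, limma adjusted p = 0.115), the centrosome kinase Nek2 by 0.27 (SE 0.08, limma adjusted p = 0.129), the condensin subunit Smc2 by 0.23 (SE 0.08, limma adjusted p = 0.174) and the kinesin Kif20b by 0.24 (SE 0.08, limma adjusted p = 0.178). Without f-WS2 the count of 4 became 22, but the share of all genes called in that refit was not taken. The interaction passed p 0.01 for Cdkn1c (limma adjusted p = 0.316), Smc2 (limma adjusted p = 0.366) and Rbl2 (limma adjusted p = 0.377). Of these, 1 was above 0 and 2 were below it, where 2.5% of all genes passed in either direction and 1.32% below 0.

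Of the 51 other mitotic genes, 49 were above 0 in daughters, with a median of 0.17 and 16 at p at most 0.05 where 9.71% of all genes were higher at that threshold. Their mean was -0.371 in f-LF1, -0.211 in f-LF2, -0.303 in f-LF4 and -0.23 in f-WS2, against 0.253 in f-WS3 and 0.204 in f-WS4. Genes that move together over pups are not independent, so that these counts are not of separate results. In sons 35 of the 51 were below 0, with a median of -0.05. Of the 36 other replication genes tested, 26 were below 0 in sons (median -0.05) and 29 above 0 in daughters (median 0.06). The 22 other cyclins, CDKs and E2F factors had medians of -0.02 and 0.07, with 0 past p 0.01. Of the 11 p53 pathway genes tested, 0 passed p 0.01 or p 0.05 in either sex.

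Some markers of other cells passed p 0.01 with diet as well. Of all genes, 3.02% rose and 2.6% fell at that threshold in males, against 3.6% and 1.59% in females. In males, 5 of 8 B cell precursor markers tested rose, among them Igll1 by 1.14 (limma adjusted p = 0.0332), Ebf1 by 0.89, Cd79a by 0.84 and Pax5 by 0.72, with a summed intensity of 402 to 1050 in m-LF and 714 to 1170 in m-WS. Vpreb1, Rag2 and Dntt failed the intensity filter, as did Gata1 of the erythroid and Ms4a3 of the myeloid markers. Of 16 neutrophil and myeloid markers, 4 rose (Cxcr2, Ctsg, S100a9 and Ltf, by 0.37 to 0.82), with sums of 852 to 2480 in m-LF and 1250 to 2010 in m-WS. Of 13 erythroid markers, Car1 rose in males by 0.66, with 8 above 0, 5 below it and a median of 0.02. In females Sptb fell by 0.23, with 10 below 0, 3 above it and a median of -0.09. The erythroid sums were 806 to 1280 in m-LF, 809 to 1120 in m-WS, 779 to 1390 in f-LF and 837 to 1070 in f-WS. In males 2 of 9 endothelial markers tested fell, Clec4g (-0.38) and Ptprb (-0.20), while 4 were above 0 and the median was -0.0028. Of 9 stellate cell and fibroblast markers 2 fell, Reln (-0.22) and Lrat (-0.24), while 6 were above 0 and the median was 0.07. Of 6 duct markers Prom1 (-0.31) fell and Sox9 (0.43) rose, with 4 below 0 and a median of -0.22. None of these endothelial, stellate cell or duct markers passed p 0.01 in females. The median correlation of the 37 genes with the marker lists was 0.16 for neutrophils, 0.14 for B cell precursors, 0.08 for erythroid cells and 0.04 for hepatocytes. It was 0.05 for Kupffer cells, 0.03 for T cells, -0.11 for endothelium, -0.12 for duct cells and -0.27 for stellate cells and fibroblasts. Of the 10 hepatocyte markers only 2 passed the filter on variability, so that their value rests mostly on genes that hardly varied. In females, 0 of the B cell precursor and 0 of the neutrophil markers passed p 0.01, with sums of 495 to 1460 in f-LF and 607 to 1260 in f-WS for the first and 1040 to 2350 and 965 to 2100 for the second. The part of these cells in the changes of the cell cycle genes was not tested.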

How the data were processed

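Liver RNA of 27 pups was hybridised to 1 Affymetrix Mouse Gene ST array each. The deposited values are log2 signals per probe set, made by the authors with RMA, which corrects the background, normalises by quantiles and summarises over all arrays, with no version given in the sources used here. Quantile normalisation gives every array nearly the same distribution (medians 5.34 to 5.43), so that a shift shared by most genes would not be visible. The number of arrays per group limits the precision. The table has 35556 rows, which are the manufacturer's probe sets and not the Entrez-based ones of the methods. A single gene was paired with 21218 of them, several genes with 1881 and none with 12457. Current symbols were found for 21185 of the first, 33 kept the listed symbol, and the brightest probe set stood for each of 18820 genes.

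As in the study, genes were kept if 4 or more arrays reached an intensity of 20 (13279 genes) and if the interquartile range was 0.1 or more (10810 genes). The fit, in limma 3.58.1 under R 4.3.3, had a mean for each of the 4 groups, used all 27 pups and let the prior variance follow intensity, in place of the IBMT of the methods. The p-values were adjusted by the Benjamini-Hochberg method over the 10810 genes. A call is p at most 0.01, 2-sided, as in the study, and the adjusted p stands beside it. The fit was tested on simulated data. The listed genes, the further gene lists and the marker lists were chosen with earlier results of these data known. Genes were named in full where p was at most 0.01 in a comparison, with the 2 of smallest p per sex in each phase. For the further lists, up to 4 of smallest p at p at most 0.01 per sex were named. Lists were described by counts and medians, with no set test. Marker lists covered hepatocytes, erythroid cells, neutrophils and myeloid precursors, B cell precursors, T cells, endothelium, stellate cells and fibroblasts, Kupffer cells and cholangiocytes. For T cells and Kupffer cells, 0 markers passed p 0.01 in either sex. Promoters are those of RefSeq on GRCm38.p6 and were not found in the table used here for 10 of the 43 genes. Alternatives varied the filters, the prior variance, the scaling, array weights, the samples and blocks for the number and prefix of the array names. Figures were drawn with matplotlib 3.10.9.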

Additional observations from a re-analysis of the deposited data

Results flagged for a closer look

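Single pups stood apart from their group in 7 of 88 groups examined over 22 named genes, where chance gives about 1 in 20. A pup was singled out when its gap to the nearest other pup was a large share of the range of the group. In f-WS2, 5 mitotic genes lay below the other f-WS pups: Plk1 at 7.23 (others 7.67 to 7.88), Aurka at 6.42 (6.97 to 7.23), Cenpe at 6.04 (6.54 to 6.74), Kif11 at 7.28 (7.91 to 8.10) and Mki67 at 8.71 (9.34 to 9.54). These genes co-vary over pups, so that the 5 are not independent. Cdc6 in m-WS4 was at 5.47 (others 5.66 to 5.70) and Prc1 in m-WS1 at 6.12 (others 6.40 to 6.52).

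The change with maternal WSD differed between sons and daughters at p at most 0.01 in limma's interaction test for 2 genes, by -0.23 for Ccnd2 and by -0.45 for Ccne1. The adjusted p was 0.377 for both, and over the alternatives it ran from 0.186 to 0.978 for Ccnd2 and from 0.149 to 0.978 for Ccne1.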

How the results depend on the processing

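A change that passed p 0.01 with the sign opposite to the reported one was met once among the named genes: Top2a in males, at -0.09, was 0.28 by its second probe set. The count of genes called in males, 3, was 1 without number 37 or number 40, 5 without number 50 and 0 on G074 arrays alone. It ran from 1 to 4 when 1 pup was left out, and only m-WS2 moved it by over 1.5 times. The count in females, 2, was 1 with arrays centred on their median, with quantile normalisation repeated, with each sex fitted alone, with the number as a random block, with arrays averaged within number and sex, without number 49 and on G073 or G074 arrays alone. Neither Bub1b nor Mcm6 was the gene called with averaged arrays (Cdk1), on G073 arrays (Kif11) or without number 49. The count in females was 4 with array weights or without number 48, 7 without number 39 and 0 without number 40. It ran from 0 to 7 when 1 pup was left out: 0 without f-LF1, f-LF4, f-WS1, f-WS3 or f-WS4, 1 without f-LF6, 4 without f-LF3, f-WS5 or m-WS6 and 7 without f-WS2. The count for the sex difference, 2, was 1 with quantile normalisation repeated and without number 37 or 50, 5 with array weights, 6 without number 39 or 48 and 0 with averaged arrays, without number 40 and on G074 arrays. It ran from 0 (without m-LF3) to 5 (without f-WS2 or f-WS5), and 13 of the 27 pups moved it. The count between sexes on WSD, 4, was 1 with averaged arrays or on G074 arrays, 2 on G073 arrays or without m-LF6 and m-WS1, and 0 without number 40. It ran from 2 (without m-WS1) to 7 (without f-WS5). On LFD it was 0 in every setting. The further lists gave 3 in males and 1 without number 37 or 48 and 0 on G074 arrays, with 2 to 4 when 1 pup was left out. In females they gave 4, and 2 with arrays centred, requantiled, each sex alone or a random block, 10 with array weights, 1 without number 37, 24 without number 39, 12 without number 50, and 0 with averaged arrays, without number 40 or on G074 arrays, with 2 to 22 when 1 pup was left out (22 without f-WS2). The median change over the 37 genes was -0.09 in males, -0.19 on G073 and 0.0018 on G074 arrays, and -0.13 to -0.05 when 1 pup was left out (-0.05 without m-WS1). In females it was 0.09, from 0.04 without number 40 to 0.17 without number 39, and 0.06 to 0.16 when 1 pup was left out (0.16 without f-WS2). The causes were not tested, and the share of all genes called was not taken in these other settings. The male change of Ccne1 kept p at most 0.01 in 23 of 24 other settings and in 27 of 27 with 1 pup left out, with adjusted p from 0.0145 to 0.998. That of Ccnd2 did in 18 of 24 and 24 of 27, that of Cdc6 in 16 of 24 and 21 of 27, and in females that of Bub1b in 18 of 24 and 22 of 27 and that of Mcm6 in 13 of 24 and 19 of 27.

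Same-numbered replicates of the titles did not pair: deviations of 36 same-numbered pairs correlated between -0.26 and 0.38, with a median of 0.02 and 10 over 0.1, and 4 pups matched their own number best. With the replicate number as a block, the counts were 5 in females, 1 for the sex difference and 24 for the further lists in females, and the others stayed within 1.5 times. The share of all genes called with this block was not taken.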
